A study of Mus musculus with 9 samples.

Results

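The tissue inhibitors of metalloproteinases are a family of 4 secreted proteins, encoded by Timp1, Timp2, Timp3 and Timp4. Their transcripts were followed in mouse brain 24 h after reperfusion from a stroke, with or without VEGF given into the ventricle. The members were all non-control probes whose RefSeq accession belongs to 1 of the 4 genes. This rule found 5 of 55681 probes (26582 of which were named through a RefSeq accession, for 20145 genes), 1 each for Timp1, Timp3 and Timp4 and 2 for Timp2, and all 5 were well above background on all 9 arrays.

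Timp proteins block the active site of matrix metalloproteinases (Mmp) and, to differing extents, of the related Adam and Adamts proteases, which cut collagen, laminin, proteoglycans and cell surface proteins. In brain these proteases act on the basement membrane of blood vessels and on shed cytokines, and Timp1 is known as the inducible member of the family, made by reactive astrocytes and myeloid cells after injury. Timp2 is a constitutive member, abundant in brain, that also helps Mmp14 to activate Mmp2. Timp3 binds to the matrix and inhibits Adam17, and Timp4 is expressed mainly in heart and brain.

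The samples were total RNA from homogenised brains of adult male C57BL/6 mice aged 50 to 53 days, with the part of the brain not given, hybridised singly to 1-colour arrays. In the sham group (3 mice) the surgery was a sham operation, and the labels state no injection. In the MCAO group (3 mice) the middle cerebral artery was closed for 90 min, and 3 h after reperfusion 1 µl of vehicle, phosphate-buffered saline, was injected into the right lateral ventricle. In the VEGF group (3 mice) the injection after the same occlusion held rhVEGF-A165, recombinant human VEGF, at 10 µg/ml in the same volume. Injections preceded sampling by 21 h. Occlusion and injection therefore come together when either group is set against sham, and the sham arrays lay on a slide of their own, so the effects of occlusion, injection and slide cannot be told apart. MCAO and VEGF arrays shared the other slide, and the scan of MCAO array 1 fell on a different day from the rest. In bulk tissue, fewer cells of a type and less RNA per cell cannot be told apart either.

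Of 30837 genes tested, 2.81% were called in the MCAO to sham comparison, 2.43% in the VEGF to sham comparison and 0.00649% (2 genes) in the VEGF to MCAO comparison. A call is an adjusted p under 0.05 from limma, a linear model fitted to all genes. With replicate number as a block and the MCAO and VEGF arrays alone, 0 genes were called between those groups. The share called against sham moved widely with single arrays, between 0.611% (without sham array 1) and 8.14% (without VEGF array 1) for MCAO and between 0.498% (without sham array 1) and 10.3% (without MCAO array 1) for VEGF. MCAO array 1 and VEGF array 1 stood apart. The median of 10 neuron markers lay 2.43 and 2.50 log2 units below the sham mean on them, against 0.37 to 0.71 below on the other ischaemic arrays, and the median of 10 endothelium markers lay 1.90 and 2.56 above, against 0.30 to 0.65. The pair was also the dimmest, with a 75th percentile of the signal of 797 and 723, against 1250 to 1770 on the other arrays. Signals quoted below are not scaled for this, while the log2 values tested are. The part of dimness in the marker values was not tested. Results that rest on this pair are given with and without it. Without the pair 22.0% of all genes were called for MCAO and 19.1% for VEGF, of which 43.7% and 44.3% were higher, and counts without the pair are to be read against these shares. The brain's own markers were present, since all 10 neuron and all 8 astrocyte markers were well above background on every array.

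Timp1 rose in the brains of both ischaemic groups, by about 2 orders of magnitude over sham. Sham brains gave signals of 174, 189 and 201, MCAO brains 11700, 20600 and 33000, and VEGF brains 30400, 31000 and 13100. Every ischaemic array lay far above every sham array, while the MCAO and VEGF arrays overlapped. On the scale used for all tests, log2 signal relative to the 75th percentile of the array, the means were -2.80 ± 0.06 in sham, 3.90 ± 0.37 in MCAO and 4.34 ± 1.04 in VEGF (SD, n = 3 each). The difference between MCAO and sham was 6.70 ± 0.46 (SE), a 104-fold rise with a 95% interval from 49.9 to 216 (limma adjusted p = 0.00050337). VEGF exceeded sham by 7.14 ± 0.46, or 142-fold with an interval from 68.0 to 295 (limma adjusted p = 0.00039929). Both comparisons share the sham arrays. Among all genes tested, Timp1 had the 17th smallest p in the former comparison and the 13th in the latter. It was called in 21 of 21 alternative analyses of each, and without the pair of arrays that stood apart the differences were 6.71 and 6.62.

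**Figure D1:**
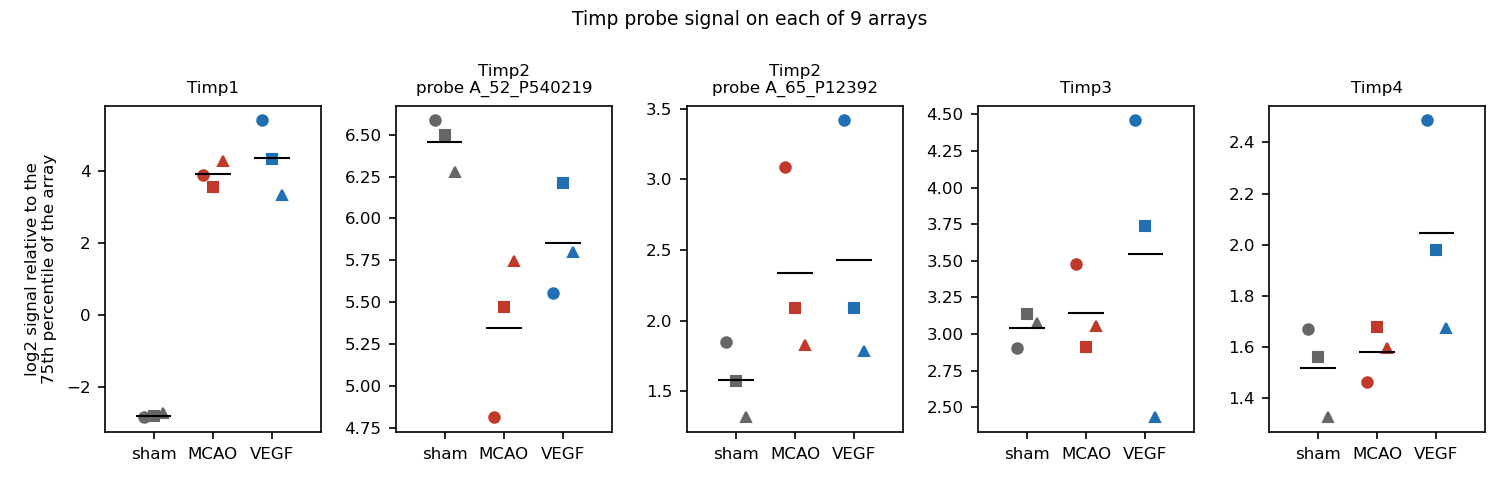
Log2 signal relative to the 75th percentile of the array for the 5 Timp probes in the sham, MCAO and VEGF groups. Each point is 1 array (circle, square and triangle are replicates 1, 2 and 3), the bar is the group mean, and the vertical scale differs between panels. Timp1 runs from about -2.80 in sham to 3.90 and 4.34 in the ischaemic groups, and both Timp2 probes separate most on array 1 of each ischaemic group.

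Timp1 did not differ detectably between the VEGF and MCAO groups. The VEGF mean exceeded the MCAO mean by 0.45 ± 0.46 (limma adjusted p = 0.99994). The 95% interval of the fold ran from 0.655 to 2.84. VEGF array 1 was the highest of all 9 at 5.39, and VEGF array 3 the lowest of the 6 ischaemic arrays at 3.31. Without VEGF array 1 the difference changed sign, to -0.079, and without VEGF array 3 it was 0.96. The order of the group levels was therefore sham, then MCAO and VEGF, the last 2 not separated beyond their spread.

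The start of Timp1 is shown because it is the member whose transcript rose, with that of Timp2 for contrast. Both windows are the 250 bases before the RefSeq transcription start (GRCm38.p6), 5′ to 3′ on the strand of the gene: chrX:20869916-20870165 on the plus strand for Timp1 and chr11:118355412-118355661 on the minus strand for Timp2. Capitals mark matches to the Ets core GGAA or the Sp1 core GGGCGG on either strand, a match on the other strand reading TTCC or CCGCCC.
Timp1: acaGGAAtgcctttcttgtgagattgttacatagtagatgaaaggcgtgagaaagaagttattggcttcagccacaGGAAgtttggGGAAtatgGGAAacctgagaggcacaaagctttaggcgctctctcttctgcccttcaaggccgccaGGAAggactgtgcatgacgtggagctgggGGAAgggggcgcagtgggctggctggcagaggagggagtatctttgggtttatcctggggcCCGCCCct
Timp2: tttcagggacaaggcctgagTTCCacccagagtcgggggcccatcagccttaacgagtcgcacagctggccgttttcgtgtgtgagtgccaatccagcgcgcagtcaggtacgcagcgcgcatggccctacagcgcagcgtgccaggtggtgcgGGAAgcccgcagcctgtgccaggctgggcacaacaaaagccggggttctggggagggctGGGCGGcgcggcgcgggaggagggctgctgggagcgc
The Timp1 window held 6 Ets matches and 1 Sp1 match, the latter on the other strand 8 bases before the start. The Timp2 window held 2 Ets matches and 1 Sp1 match, the window of Timp3 held 3 and 1, and that of Timp4 held 3 and 0. Of 32851 promoters of the same length, 93.4% held an Ets match and 32.7% an Sp1 match. None of the 4 windows held the AP-1 letters TGANTCA (6.7% of all promoters), the STAT letters TTCNNNGAA (7.0%), an NF-kB consensus (1.4%) or TATAAA (12.4%), searched on both strands. The windows of Timp2 and Timp3 were rich in G and C (68.0% and 65.6%), those of Timp1 and Timp4 (54.4% and 53.6%) lay near the median of 52.4% over all promoters.

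Among 19 genes known as inducers of Timp1 or as parts of their signalling (interleukin 6 family cytokines and receptors, tumour necrosis factor, Stat3, AP-1 and Ets factors), 8 rose in MCAO and 7 in VEGF against sham, and 0 fell. The share of all genes called higher was 2.28% in MCAO and 2.07% in VEGF. Osmr, the receptor subunit for oncostatin M, rose by 3.68 ± 0.21 log2 units in MCAO and by 3.84 ± 0.21 in VEGF (limma adjusted p = 0.00021204 and 0.00020832). Its 6 ischaemic values lay between 2.60 and 3.21 and its sham values between -0.96 and -0.76, with no overlap. Socs3, a feedback inhibitor induced by Stat3, rose by 5.33 ± 0.50 and 5.05 ± 0.50. Tnf, the cytokine, rose by 4.79 ± 0.47 and 4.23 ± 0.47, and Stat3, the transcription factor downstream of these receptors, by 2.10 ± 0.30 and 2.14 ± 0.30. The median of the list was 1.88 in MCAO and 2.14 in VEGF, beside -0.04 and -0.12 over all genes tested. Without the pair of arrays that stood apart, 15 and 12 of the 19 were called, all higher, beside 22.0% and 19.1% of all genes in that setting. None of the 19 was called between VEGF and MCAO.

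Many markers of the cells known to make Timp1 moved with it, and their part in the result was not tested. The counts of called markers below stand beside 2.28% of all genes called higher in MCAO and 2.07% in VEGF. All 8 reactive astrocyte markers had groups that did not overlap with sham, of which 7 rose in MCAO and 8 in VEGF, and groups that do not overlap were found for 40.3% and 42.1% of all genes. Their summed level, in units of the array's 75th percentile, was 15.0 to 15.6 in sham, 136 to 212 in MCAO and 132 to 194 in VEGF. Lcn2, a secreted lipocalin on that list, rose by 6.82 ± 0.34 in both comparisons, and which cells made it was not tested. The list shares Osmr with the inducers of Timp1 and Cd44 with the surface and matrix partners of Timp proteins. Of 7 macrophage and activated microglia markers measured, 5 rose in each comparison, Arg1 by 6.18 ± 0.70 and 6.03 ± 0.70, and their summed level went from 1.15 to 1.57 in sham to 42.8 to 128 in MCAO and 24.1 to 167 in VEGF. Of 7 neutrophil markers, 4 rose in each, among them S100a9, by 6.04 ± 0.92 and 5.96 ± 0.92. Not all 7 went up, since 5 lay above 0 in MCAO and 6 in VEGF. Without the pair of arrays that stood apart, Ngp and Camp lay at -1.28 and -0.48 in MCAO, neither called. Of 8 markers of resting microglia, 1 was called, the receptor P2ry12, which fell by 2.67 ± 0.20 and 2.31 ± 0.20. In both comparisons 5 of the 8 lay above 0, with medians of 0.30 and 0.57, and its summed level was at most 111 in sham, 170 to 203 in MCAO and 150 to 349 in VEGF. Sham arrays showed 6 of the 7 macrophage and 5 or 6 of the 7 neutrophil markers well above background, so neither list was absent there. Of the 8 reactive astrocyte markers, 7 or 8 were well above background on each sham array.

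The 5 genes most like Timp1 across the 9 arrays, among 16300 genes well above background on all arrays, were Fcgr2b, Ctsc, Ms4a6c, Tgm1 and Dok2. Their Pearson correlations with Timp1 ran from 0.994 to 0.997 over points that include the gap between sham and ischaemic arrays. Within the 6 ischaemic arrays the correlations ran from 0.792 to 0.955, with Ctsc and Fcgr2b the closest. All points share arrays and their scaling.

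Timp2 was measured by 2 probes, which went opposite ways. The brighter probe, A_52_P540219, gave signals of 120000, 121000 and 104000 in sham, 22400, 78600 and 91800 in MCAO, and 34000, 115000 and 73500 in VEGF. Relative to the 75th percentile its means were 6.45 ± 0.16 in sham, 5.34 ± 0.48 in MCAO and 5.86 ± 0.33 in VEGF (SD, n = 3 each). On that scale all 6 ischaemic arrays lay below all 3 sham arrays, and MCAO overlapped VEGF.

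The difference for the brighter Timp2 probe was -1.11 ± 0.28 log2 units in MCAO, a level of 0.464 of sham, and did not pass the test (limma adjusted p = 0.080774). It was -0.60 ± 0.28 in VEGF (limma adjusted p = 0.23748) and 0.51 ± 0.28 between VEGF and MCAO (limma adjusted p = 0.99994), the last being 0.25 if MCAO array 1 was left out and 0.33 if VEGF array 2 was. Without VEGF array 1 the MCAO difference of the same size was called (limma adjusted p = 0.048844), as were 8.14% of all genes. Without both arrays that stood apart it was -0.84 and also called (limma adjusted p = 0.024495), as were 22.0% of all genes. The mean of both Timp2 probes gave -0.18 in MCAO and was not called (limma adjusted p = 0.66056). The summed level of the 10 neuron markers was 476 to 498 in sham, 115 to 371 in MCAO and 122 to 398 in VEGF, and its part in the Timp2 difference was not tested. None of these 10 markers was called in either comparison with sham, where 2.81% and 2.43% of all genes were. Without the pair, 4 of the 10 markers were called in MCAO and 2 in VEGF, all lower. In that setting 22.0% and 19.1% of all genes were called in either direction, 43.7% and 44.3% of them higher. The VEGF count is near the background of calls in either direction.

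The dimmer Timp2 probe, A_65_P12392, gave signals of 4500, 3980 and 3340 in sham, 6760, 7520 and 6080 in MCAO, and 7720, 6590 and 4540 in VEGF. Its means on the tested scale were 1.58 ± 0.27, 2.33 ± 0.66 and 2.43 ± 0.87 (SD, n = 3 each), and both ischaemic groups overlapped sham. In the fit over all 43921 probes, of which 2.25% and 1.97% were called against sham, it was higher than sham by 0.76 ± 0.47 in MCAO (limma adjusted p = 0.38215) and by 0.85 ± 0.47 in VEGF (limma adjusted p = 0.293), neither of them called. Between VEGF and MCAO it differed by 0.10 ± 0.47 (limma adjusted p = 0.99994), where 0.00455% of probes were called. Thus neither probe of Timp2 passed the test, and their directions differed. The summed level of the 10 endothelium markers, all well above background on every array, was 41.3 to 46.0 in sham, 77.9 to 204 in MCAO and 68.3 to 280 in VEGF, and its part in the values of the dimmer probe was not tested. Of those 10 markers 0 were called higher, and 1, the transporter Slco1a4, was called lower in both comparisons with sham (-1.59 ± 0.25 and -2.23 ± 0.25). Of all genes 2.28% and 2.07% were called higher there, and 0.535% and 0.357% lower. Without the pair 3 of the 10 were called higher and 1 lower in each, where 22.0% (MCAO) and 19.1% (VEGF) of all genes were called. A median highest on MCAO array 1 and VEGF array 1 was not particular to endothelium. The red blood cell median was 1.38 and 1.51 there, that of macrophages 6.42 and 6.59, and that of resting microglia 0.56 and 1.31, each above the other arrays. Other lists differed, the fibroblast and meninges median being -0.69 on MCAO array 1.

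**Figure D2:**
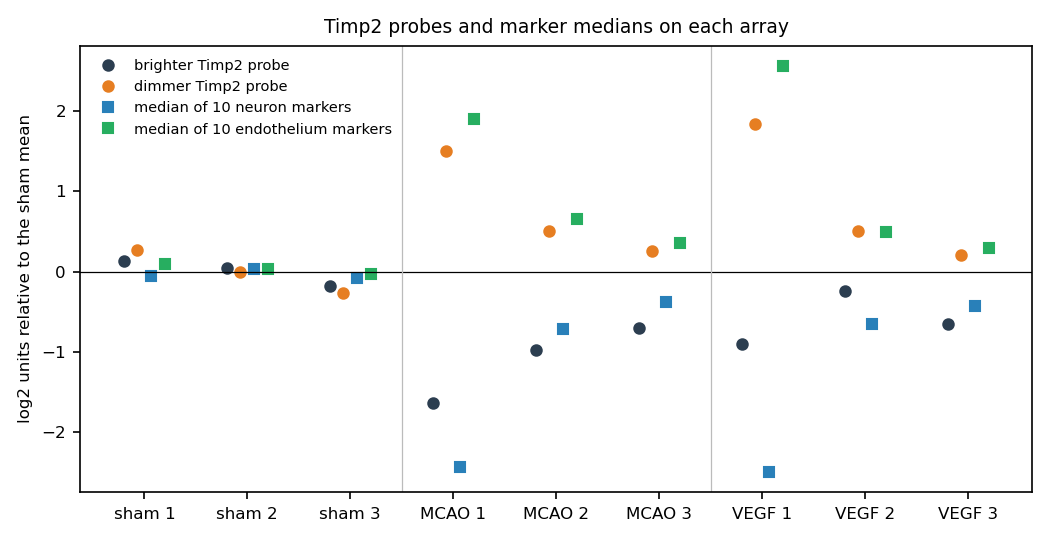
Log2 difference from the sham mean on each of the 9 arrays for the brighter and the dimmer Timp2 probe (circles), beside the medians of 10 neuron and 10 endothelium markers (squares). On MCAO 1 and VEGF 1 the brighter probe lies at -1.64 and -0.90 and the dimmer one at 1.51 and 1.84, with the neuron median lowest and the endothelium median highest on the same arrays. Medians of lists not drawn, such as red blood cells and resting microglia, were also highest on these arrays.

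The gap between the probes, dimmer minus brighter relative to its sham mean, reached 3.15, 1.49 and 0.96 log2 units in the MCAO brains and 2.74, 0.75 and 0.86 in the VEGF brains. On the sham arrays it stayed between -0.09 and 0.14. All 6 ischaemic arrays lay above all 3 sham arrays. The gap was noticed in these data and has no test. Of 4676 genes with at least 2 kept probes, 21.9% had probes of opposite sign in the MCAO to sham comparison, but only 83 (1.78%) had probes as far apart as the 1.86 log2 units of Timp2. In the VEGF to sham comparison 159 (3.40%) were as far apart as its 1.45. The probe sequences were not used here, so which transcripts each probe reads is unknown.

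The genes most like the brighter Timp2 probe across the 9 arrays were Gm5458, Bex1, Kcng1, 1500009L16Rik and Gap43, with correlations from 0.978 to 0.985 and, within the 6 ischaemic arrays, from 0.950 to 0.967. Gap43 encodes a growth cone protein of neurons.

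Timp3, the matrix-bound member, was called in no comparison, and its arrays spread widely within the VEGF group. Its signals were 9350, 11800 and 11300 in sham, 8860, 13300 and 14200 in MCAO, and 15900, 20700 and 7120 in VEGF. On the tested scale the means were 3.04 ± 0.12, 3.15 ± 0.29 and 3.54 ± 1.03 (SD, n = 3 each), and the 3 groups overlapped.

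The Timp3 difference was 0.11 ± 0.45 log2 units for MCAO minus sham (interval -0.93 to 1.14), 0.50 ± 0.45 for VEGF minus sham (interval -0.53 to 1.54) and 0.40 ± 0.45 for VEGF minus MCAO (interval -0.64 to 1.43). Without VEGF array 1 the VEGF minus sham value was 0.046, as it was without the pair, and without VEGF array 3 it was 1.06. VEGF minus MCAO was -0.061 without VEGF array 1, 0.95 without VEGF array 3 and 0.10 without the pair. None passed the test in the main analysis or in any alternative, and the intervals still allow a change of about 1 log2 unit or more. VEGF array 1 was the highest of all 9 arrays at 4.46 and VEGF array 3 the lowest at 2.43. The median of 8 choroid plexus markers, relative to the sham mean, was -3.64, 1.29 and -3.47 on VEGF arrays 1, 2 and 3, and that of 8 fibroblast and meninges markers was 1.30, 0.37 and 0.10. Both lists of 8 markers were well above background on every array. The summed choroid plexus level was 31.7 to 110 in sham, 39.6 to 298 in MCAO and 2.73 to 162 in VEGF, that of the fibroblast and meninges markers was 30.7 to 43.5, 29.6 to 51.2 and 32.1 to 118, and the part of either in the Timp3 values was not tested. The genes most like Timp3 were 4833422C13Rik, Tbx3, Hmgn5, Snord123 and Vcam1 (correlations 0.939 to 0.952 over 9 arrays), of which Vcam1 is an endothelial adhesion molecule. Without the pair of arrays that stood apart the correlations were lower, 0.805 (Vcam1) to 0.918.

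Timp4 had nearly the same mean in MCAO and sham. Its signals were 3980, 3950 and 3360 in sham, 2200, 5670 and 5170 in MCAO, and 4050, 6120 and 4210 in VEGF. On the tested scale the means were 1.52 ± 0.18, 1.58 ± 0.11 and 2.05 ± 0.41 (SD, n = 3 each). MCAO overlapped sham, while the lowest VEGF array, at 1.673, lay just above the highest sham array, at 1.671.

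For Timp4 the MCAO difference was 0.06 ± 0.24 log2 units (limma adjusted p = 0.89668), with an interval from -0.48 to 0.60 that does not reach 1 log2 unit on either side. The VEGF difference was 0.53 ± 0.24 against sham (limma adjusted p = 0.21958) and 0.47 ± 0.24 against MCAO (limma adjusted p = 0.99994), neither of them called. Without VEGF array 1 these were 0.31 and 0.25, and without the pair 0.31 and 0.19. The genes most like Timp4 were A730020M07Rik, Colec12, Fbln1, Slc6a12 and Lig1 (correlations 0.941 to 0.949). For all 5 the correlation was lower without the pair of arrays that stood apart, 0.762 to 0.822.

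**Figure D3:**
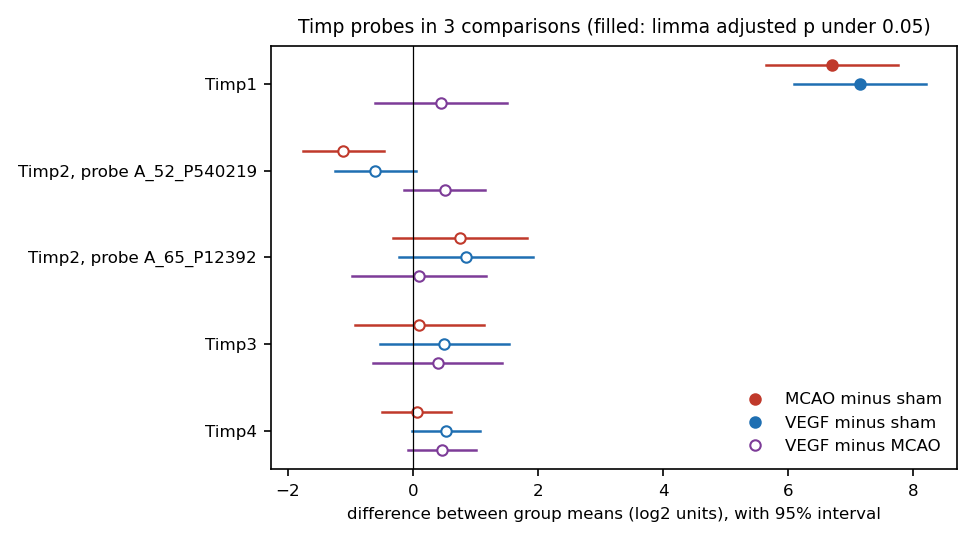
Difference between group means in log2 units, with its 95% interval, for the 5 Timp probes in the MCAO minus sham, VEGF minus sham and VEGF minus MCAO comparisons. Filled points have a limma adjusted p under 0.05, which holds for Timp1 against sham alone (6.70 and 7.14), and the Timp2 probes lie on opposite sides of 0 in both comparisons with sham.

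Within the family, then, 1 of 4 genes was called in each comparison with sham, in which 2.28% (MCAO) and 2.07% (VEGF) of all genes were called higher, and 0 of 4 between VEGF and MCAO. Groups did not overlap with sham for 2 of 4 genes in MCAO (Timp1 and Timp2) and for 3 of 4 in VEGF (those and Timp4), against 40.3% and 42.1% of all genes. Timp2 is counted here by its brighter probe, while its dimmer probe overlapped sham in both groups. The gap for Timp4 was narrow, from 1.671 (highest sham array) to 1.673 (lowest VEGF array). Between VEGF and MCAO the groups overlapped for all 4, and did not for 5.8% of all genes. The rise of Timp1 relative to that of Timp2 was 7.81 log2 units in MCAO and 7.74 in VEGF, relative to Timp3 6.59 and 6.64, and relative to Timp4 6.64 and 6.62. On each ischaemic array Timp1 had risen from its sham mean by at least 5.96 log2 units more than any other member, Timp2 being read by its brighter probe. The exact two-sided permutation test over samples gave p = 0.1 for each, the smallest that 3 against 3 arrays allow, and 0.15 after adjustment over 18 such balances. Timp1 alone separated the groups by more than the other members moved, so that p restates the Timp1 rise and is no separate support. The differences in rise show unequal change, not a ratio of amounts, because probes differ in brightness.

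Of the secreted metalloproteinases, the main targets of the family, 4 of 11 tested rose against sham in both ischaemic groups and 0 fell. Among all genes 2.28% were called higher in MCAO and 2.07% in VEGF. On the list of 16, 5 were not tested (Mmp1a, Mmp1b, Mmp20, Mmp21 and Mmp27). The median over the 11 was 1.55 in MCAO and 1.80 in VEGF. Mmp3, stromelysin, had a sham signal not well above background on all 3 arrays and rose at least 2052-fold in MCAO and at least 1219-fold in VEGF (limma adjusted p = 0.0015962 and 0.0023805). A bound compares the bright mean with the dimmest signal still well above background. It covers the background floor and not the spread between arrays. Mmp8, the neutrophil collagenase, rose at least 71.5-fold and 86.3-fold from a sham level that was likewise not well above background, and Mmp13, another collagenase, at least 17.4-fold and 18.6-fold. Mmp19 rose by 2.16 ± 0.45 and 2.38 ± 0.45 log2 units.

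The bounds for Mmp3 lay above the upper ends of the Timp1 fold intervals, 216 in MCAO and 295 in VEGF. These are unlike measures, since the intervals cover the spread between arrays and the bounds do not. Mmp9, the gelatinase B of neutrophils and vessels, was higher than sham on all 6 ischaemic arrays but did not pass the test (1.55 ± 0.46 in MCAO, limma adjusted p = 0.11438, and 1.80 ± 0.46 in VEGF, limma adjusted p = 0.085413). Timp1 gained 5.15 and 5.34 log2 units on Mmp9, while its balance against Mmp3 changed by -4.39 and -3.19 (exact permutation p = 0.1 for each, the smallest possible). For Mmp9 that p restates the Timp1 rise and is no separate support. For Mmp3 the sham values were not well above background. Mmp2, gelatinase A, overlapped sham in both groups (0.09 ± 0.45 and 0.36 ± 0.45). Without the pair of arrays that stood apart, 6 and 5 of the 11 secreted enzymes were called, all higher, against 22.0% and 19.1% of all genes.

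None of the 7 membrane-bound metalloproteinases was called in either comparison with sham, and their medians were -0.45 and -0.29. Of all genes 2.81% and 2.43% were called, so a count of 0 in 7 is near the background. Mmp14, the partner of Timp2 in the activation of Mmp2, was higher by 1.15 ± 0.44 and 1.26 ± 0.44 log2 units without passing the test (limma adjusted p = 0.19164 and 0.15449). Timp1 gained 5.55 and 5.89 log2 units on it, with an exact permutation p of 0.1 that again restates the Timp1 rise. Without the pair, Mmp14 was called in MCAO at 0.86, the only 1 of the 7, where 22.0% of all genes were called.

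Of the Adam proteases tested, 1 of 8 rose, Adam8, a protease of myeloid cells, by 4.86 ± 0.76 in MCAO and 4.60 ± 0.76 in VEGF (limma adjusted p = 0.015435 and 0.020008). Of the Adamts proteases, 1 of 10 rose, Adamts1, which cuts proteoglycans, by 4.25 ± 0.67 and 4.24 ± 0.67. These counts and those of the next 2 lists stand beside 2.28% and 2.07% of all genes called higher. A list of 8 genes was taken as other inhibitors of metalloproteinases, although not each is an established inhibitor (Reck, A2m, Pzp, Tfpi2, Pcolce, Spock1, Spock2 and Spock3). Of these 2 rose: A2m, a protease-trapping plasma protein, by 3.63 ± 0.44 and 3.11 ± 0.44, and Tfpi2, a Kunitz-type inhibitor not well above background in sham, at least 32.1-fold and 22.3-fold. Reck, the membrane-anchored inhibitor, overlapped sham in both groups (-0.15 ± 0.28 and -0.20 ± 0.28), although it was called lower in VEGF at -0.51 without the pair of arrays. Of 9 surface and matrix partners of Timp proteins, only Cd44 was called, rising by 2.95 ± 0.38 and 2.64 ± 0.38. Without the pair of arrays that stood apart, when 22.0% and 19.1% of all genes were called, calls in 3 of these 4 lists went both ways. Of 8 Adam genes 2 were higher and 1 lower in MCAO, and 3 higher and 1 lower in VEGF. Of 11 Adamts genes 3 were higher and 1 lower in MCAO, and 2 higher and 0 lower in VEGF. Counted in either direction the VEGF share is near the background, in which 44.3% of the calls were higher. Of the 8 genes listed as other inhibitors 2 were higher and 2 lower in MCAO, and 2 higher and 1 lower in VEGF, and of the 9 partners 4 and 3 were higher. No gene of any of these lists was called between VEGF and MCAO.

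**Figure D4:**
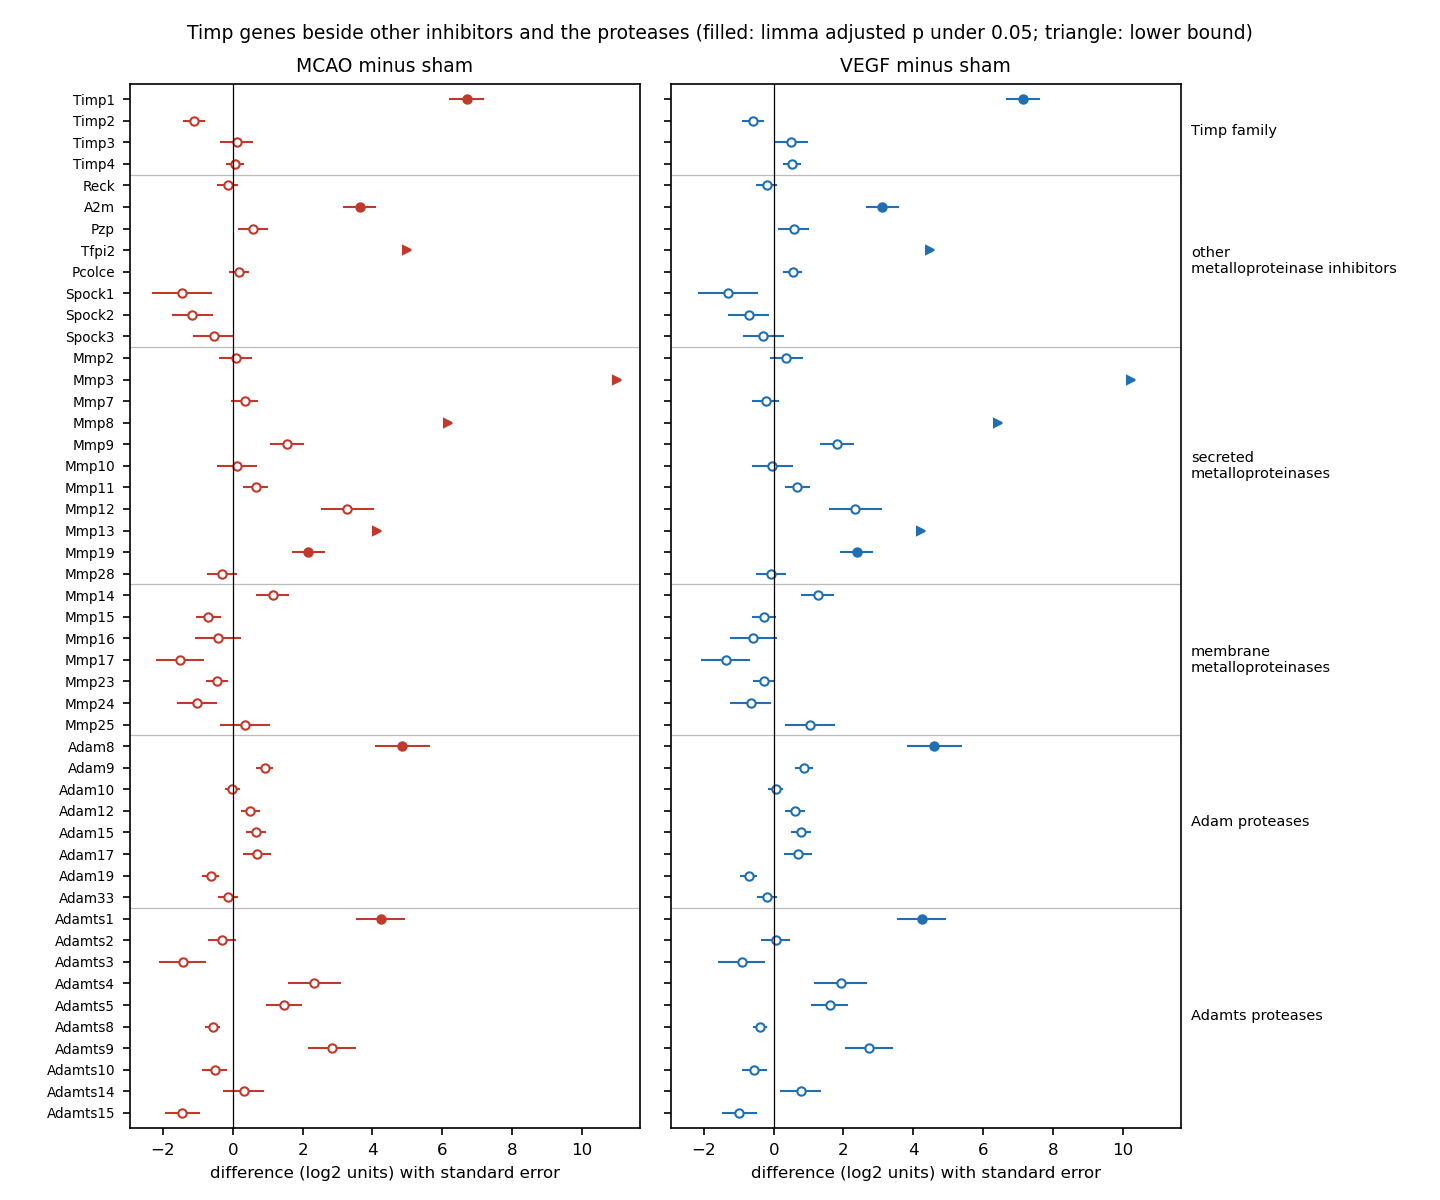
Difference from sham in log2 units, with its standard error, for the Timp genes, the genes listed as other inhibitors and 4 protease groups in MCAO (left) and VEGF (right). Filled symbols have a limma adjusted p under 0.05. Triangles are lower bounds on the difference of the means, drawn without a standard error, for genes whose sham signal was not well above background. Timp1 (6.70 and 7.14) lies to the right of the genes listed as other inhibitors as drawn, and Mmp3 is the one protease drawn beyond it in both panels.

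3 of the Timp genes lie inside synapsin genes, which encode proteins of synaptic vesicles. In RefSeq's annotation of GRCm38.p6, Timp1 lies within Syn1 on chromosome X and Timp4 within Syn2 on chromosome 6, each on the opposite strand, and Timp3 lies within Syn3 on chromosome 10. The synapsin hosts were lower than sham in their means but none was called. Syn1 differed by -1.21 ± 0.75 in MCAO and -1.13 ± 0.75 in VEGF, Syn2 by -1.62 ± 0.71 and -1.33 ± 0.71, and Syn3 by -1.49 ± 0.75 and -1.39 ± 0.75. On MCAO array 1 and VEGF array 1 Syn1 lay 2.67 and 2.65 log2 units below its sham mean, and on the other 4 ischaemic arrays 0.02 to 0.73 below. Timp1 rose, while the uncalled difference of its host was of opposite sign. Timp2 in turn holds Cep295nl within its own span on chromosome 11, and that gene was higher by 2.64 ± 0.72 and 2.62 ± 0.72 without passing the test (limma adjusted p = 0.093953 and 0.098562). Without the pair of arrays Cep295nl was called at 2.12 and 1.75, and Syn2 was called in MCAO at -0.83. In that setting 22.0% of all genes were called in MCAO and 19.1% in VEGF.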

How the data were processed

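Each sample was 1 mouse's brain RNA (200 ng, Cy3) on a 1-colour Agilent array. Per the file headers, the deposited scanner files come from Feature Extraction 10.7.1.1 and hold background-subtracted intensity per spot. The deposited values show that this signal was divided by a spatial trend, given per spot as a ratio in the deposited files, on every array but MCAO array 1. Between 73.0% (VEGF array 1) and 81.8% (MCAO array 3) of spots were well above background and 0 were saturated. MCAO array 1 and VEGF array 1 were dimmer than the rest. The number of arrays also limits the precision. The authors' deposited table of log2 values correlated at 0.998 to 1.00 with the log2 signals and has a median of 6.98 on each array; its normalization is not given in the sources used here.

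Spots of a probe were averaged, each array was scaled to its 75th percentile and log2 was taken. Of 55681 probes, 43921 well above background on all 3 arrays of a group were kept, and the brightest per gene was tested (30837 genes, 17589 of them with a RefSeq symbol). A linear model over all 9 arrays (limma 3.58.1, R 4.3.3) compared the groups, with Benjamini-Hochberg adjustment and no block; the code was tested on simulated data. Promoter windows and neighbours came from RefSeq on GRCm38.p6; the files name no build.

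The members and lists were chosen with earlier results of these data known. Named genes were the Timp genes, at most 4 called genes of smallest p per list (2 per marker list), Mmp2, Mmp3, Mmp9, Mmp14, Reck, A2m, the nested genes, and the 5 genes of highest correlation. Deviations from group means of same-numbered MCAO and VEGF arrays correlated at 0.587, 0.224 and 0.558, so by a rule of every pair over 0.1 the numbers were taken to pair those groups, although MCAO 2 with VEGF 3 (0.392) and MCAO 3 with VEGF 2 (0.234) were above MCAO 2 with VEGF 2 and differently numbered arrays ranged from -0.56 to 0.39; same-numbered sham and ischaemic arrays correlated at -0.11 to 0.15 and were not. The mice were different animals. Alternatives changed background, scaling, signal (detrended alike on all arrays, or the authors' table), filter, probe choice, groups fitted, block, array weights (estimated gene by gene) and arrays left out.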

Additional observations from a re-analysis of the deposited data

How the results depend on the processing

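Timp1 kept its direction and its call against sham in 21 of 21 alternatives of each comparison, at 6.39 to 6.88 log2 units in MCAO (6.51 to 6.88 with 1 array left out) and 6.62 to 7.66 in VEGF, a range that leaving out 1 array spans. Timp2 in MCAO (-1.11, not called) was called with gene-by-gene array weights (-0.89, limma adjusted p = 0.002146), where 40.2% of all genes were called. It was also called without the pair of arrays that stood apart (-0.84, beside 22.0% of all genes) and without VEGF array 1 (beside 8.14%). With 1 array left out it ranged from -1.31 to -0.84. The dimmer Timp2 probe, an alternative added after seeing the data, reversed it to 0.76 in MCAO and 0.85 in VEGF. The mean of both probes gave -0.18 in MCAO and 0.13 in VEGF, neither called. The cause of the disagreement between the probes was not tested. Uncalled differences near 0 also reversed: Timp3 in MCAO to -0.12 with array weights and -0.057 without the pair (-0.057 to 0.23 with 1 array left out), Timp4 in MCAO to -0.036 with normexp background and -0.014 with median scaling (-0.035 to 0.14 with 1 array left out), and, between VEGF and MCAO, Timp1 to -0.089 without the pair (-0.079 to 0.96 with 1 array left out) and Timp3 (-0.061 to 0.95 with 1 array left out).

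The replicate block over all 9 arrays called 1229, 946 and 2 genes for MCAO to sham, VEGF to sham and VEGF to MCAO, against 868, 748 and 2; with the MCAO and VEGF arrays alone it called 0. The block changed no call of a Timp gene, Timp2 in MCAO included. With the block and the MCAO and VEGF arrays alone, VEGF minus MCAO was 0.45 ± 0.53 log2 units for Timp1 and 0.51 ± 0.21 for Timp2. It was 0.40 ± 0.38 for Timp3 and 0.47 ± 0.24 for Timp4 (SE, limma adjusted p = 0.90069 to 0.90212 for the 4 genes).

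Counts over all genes moved further than the Timp calls. MCAO to sham ranged from 190 to 2537 with 1 array left out (190 without sham 1, 2537 without VEGF 1) and gave 554 with normexp background, 1788 with the 2 groups alone, 6909 without the pair and 12385 with array weights. VEGF to sham ranged from 155 (without sham 1) to 3201 (without MCAO 1) and gave 440, 1588 with median scaling, 6000 without the pair and 7094 with array weights. Of the calls in MCAO to sham 81.0% were higher, against 43.7% without the pair and 40.7% with array weights. VEGF to MCAO gave 0 to 27 calls in all, and 856 genes at an unadjusted p under 0.05. Limits are 3 arrays a group, a slide shared by all sham arrays and no other, and 1 probe for each member but Timp2.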
